A study of Mus musculus with 40 samples.

Results

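Training in the object location memory (OLM) task was followed, 60 min later, by higher levels of 46 genes in the dorsal hippocampus of young wildtype mice. Immediate-early and signalling-feedback genes were among them, while 32 of the 46 stood in none of the activity, feedback, clock and glucocorticoid lists below. The members described here are all genes with a mean of at least 0.5 RPKM (reads scaled to the exon length of a gene in kilobases and to the mapped reads of the library in units of M, or mega, reads) over the young wildtype libraries, which kept 13705 of 20953 genes in the deposited table. The libraries are 12 of the 40 in the series, 6 from mice taken directly from the homecage and 6 from mice killed 60 min after training. A library is named by its label, in which HC stands for homecage, BV for OLM training and the number for the mouse. These mice were C57BL/6J, wild type and 2 to 4 months old, and differ by label only in whether they were trained. Each group held females and males by the paper's counts. Xist, a transcript of female cells, stood at 18.8 to 33.5 RPKM in some libraries of each group and at 0.149 RPKM or less in the rest. The other 28 libraries come from old mice (18 to 20 months), wildtype or HDAC3flox/flox, all of which received an AAV that expresses Cre from the CaMKII promoter in the dorsal hippocampus, so that HDAC3 was deleted in excitatory neurons of the flox/flox mice alone. The young libraries came from an earlier study of the same laboratory for which no infusion is described.

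In OLM training, a mouse explores a pair of identical objects in a familiar box, and long-term memory is later read from its preference for an object that has been moved. Memory for object location depends on the dorsal hippocampus. Activity of neurons raises calcium and activates the MAP kinase cascade and the transcription factors CREB and SRF, which bind the cAMP response element (CRE) and the CArG box. Their first targets are immediate-early genes, many of which encode transcription factors themselves (the Egr, Fos and Nr4a families), together with phosphatases and adaptor proteins that switch the MAP kinase cascade off again. Per1 and Per2, which encode inhibitory parts of the circadian clock, have CRE sites as well and are induced by light and by neuronal activity.

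Of the 13705 genes, 46 were called higher after OLM, which is 0.336% of those tested, and 16 were called lower, which is 0.117%. A call required a p under 0.05 before adjustment and under 0.15 after Benjamini-Hochberg adjustment, with limma on log2(RPKM + 0.5). The changes were small. The median size of the log2 fold change was 0.24 among the genes called higher, which is a factor of 1.18, and 0.23 among those called lower. Only 6 of the genes called higher and 0 of those called lower changed by more than 0.5 on this scale. Among the called genes, 34 of the 46 had every OLM library above every homecage library. For 13 of the 16, every OLM library lay below every homecage library. Of all genes tested, 0.759% and 0.285% did so. The calls were made on these same libraries, which favours such separation, so it adds no support to them. At an adjusted p under 0.05 there were 6 genes, all of them higher: Egr2, Egr4, Egr1, Per1, Dusp6 and Errfi1.

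One library stood apart and it bears on every count given here. The OLM library YWT-BV-1923 held 9030 RPKM of Ttr, the transthyretin transcript of the choroid plexus, and its score on the first principal component, which carried 49.2% of the variance of the 12 libraries, was 39.98 where the others lay between -13.2 and 19.6. The homecage libraries YWT-HC-1931 and YWT-HC-1940 held 3650 and 2494 RPKM of Ttr, and the other 9 libraries held 9.46 to 135 RPKM. Over the whole list of 12 choroid plexus markers, the summed level ran from 21.6 to 3780 RPKM in the homecage group and from 17.9 to 9310 RPKM in the OLM group. Without YWT-BV-1923, 528 genes were called higher (3.85%) and 482 lower (3.52%), and these included all 62 genes called with it. The part that choroid plexus tissue plays in the calls was not tested, and counts for the gene lists below are also given without this library. Markers of other neighbouring tissue were high in it too. Thalamus and habenula markers summed to 82.7 RPKM in YWT-BV-1923, 47.6 RPKM in YWT-BV-1913 and 28.9 to 42.2 RPKM in the other 10 libraries. Striatum and septum markers summed to 100.4 RPKM in YWT-BV-1923 and to 52.8 to 71.1 RPKM elsewhere. The part of these tissues was not tested either. Markers listed for adult neurogenesis summed to 67.0 RPKM in YWT-BV-1923, 47.3 RPKM in YWT-BV-1913 and 22.8 to 31.9 RPKM elsewhere. Among them, Calb2 stood at 42.35 RPKM in YWT-BV-1923, 23.29 RPKM in YWT-BV-1913 and 3.63 to 9.14 RPKM elsewhere. The tissue that these reads came from was not tested, and Calb2 made up much of the sum in YWT-BV-1923 and YWT-BV-1913. Sox11 lay inside the range of the other libraries in both.

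Markers of the hippocampal cell types were present in all libraries. Summed levels of the CA1 pyramidal markers ran from 249.8 to 327.0 RPKM in homecage and from 228 to 286 RPKM in OLM libraries, those of CA3 from 189 to 221 and from 188 to 212 RPKM, and those of dentate granule cells from 155 to 212 and from 143 to 207 RPKM. The CA1 markers were lower on average after OLM for 8 of 10 genes, with a median log2 fold change of -0.13, and limma called 0 of them (3 lower at an unadjusted p under 0.05). Without YWT-BV-1923, where 3.52% of all genes were called lower, the median was -0.10 and 1 of the 10, Spink8, was called lower. Neither CA3 nor dentate markers held a call with all 12 libraries. Without YWT-BV-1923, where 3.85% of all genes were called higher, the dentate marker Pdzd2 alone was called, and it was higher. Neocortical markers summed to 87.1 to 115.4 RPKM over both groups, with 0 called with or without that library. The 12 myelin and oligodendrocyte markers were all higher on average after OLM, with a median log2 fold change of 0.19, but their summed level overlapped between groups (1910 to 3270 RPKM against 2060 to 3210 RPKM) and limma called 0 of them (0 also at an unadjusted p under 0.05). Without YWT-BV-1923 their median was 0.13 and 0 were called. Without the 3 libraries richest in Ttr it was 0.27 and 3 were called higher, where 816 of 13705 genes were called higher. The RNA is from tissue punches of the dorsal hippocampus and mixes its cell types, so fewer cells of a type and less RNA per cell cannot be told apart. Estimated depth was 24.6 to 32.6 M reads in homecage and 24.3 to 35.3 M reads in OLM libraries, with a median of 26.2 M reads in both.

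The stretches upstream of the start sites of the most stable genes are shown first, because CRE and CArG letters lie in several of them. Sequences are RefSeq promoter windows of GRCm38.p6 (the mm10 assembly), and 250 bases before a start site are printed from 5′ to 3′. Capitals mark a CRE core (TGACG or its reverse complement CGTCA), a full CRE (TGACGTCA), a CArG box (CC, then 6 bases of A or T, then GG) or an E-box (CACGTG, the clock element). Where several start sites were listed, the stretch with the most kinds of motif among CRE core, full CRE and CArG box was printed. The motifs seen in Egr2, Per1 and Errfi1 are therefore partly an outcome of that choice. The sequences of Egr2 (chr10:67537619-67537868, plus strand, the third of 5 listed start sites), Egr4 (chr6:85513590-85513839, minus strand), Per1 (chr11:69098699-69098948, plus strand, the first of 2 start sites) and Dusp6 (chr10:99262981-99263230, plus strand) are those of the genes called in all leave-one-out fits that have an entry in the table.
Egr2: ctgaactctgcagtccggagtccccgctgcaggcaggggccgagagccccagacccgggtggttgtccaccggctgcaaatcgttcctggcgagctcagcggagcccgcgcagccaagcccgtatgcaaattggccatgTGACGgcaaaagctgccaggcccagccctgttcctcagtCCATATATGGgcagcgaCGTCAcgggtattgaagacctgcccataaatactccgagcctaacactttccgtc
Egr4: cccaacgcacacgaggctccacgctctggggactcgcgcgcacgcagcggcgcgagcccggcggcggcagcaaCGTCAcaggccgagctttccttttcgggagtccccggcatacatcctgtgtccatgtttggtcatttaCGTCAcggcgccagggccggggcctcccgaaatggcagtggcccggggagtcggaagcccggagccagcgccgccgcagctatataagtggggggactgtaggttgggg
Per1: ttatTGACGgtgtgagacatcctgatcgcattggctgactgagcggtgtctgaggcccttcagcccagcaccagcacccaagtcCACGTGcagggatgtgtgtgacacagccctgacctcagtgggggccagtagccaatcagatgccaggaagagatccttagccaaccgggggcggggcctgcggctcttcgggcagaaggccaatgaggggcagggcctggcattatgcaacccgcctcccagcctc
Dusp6: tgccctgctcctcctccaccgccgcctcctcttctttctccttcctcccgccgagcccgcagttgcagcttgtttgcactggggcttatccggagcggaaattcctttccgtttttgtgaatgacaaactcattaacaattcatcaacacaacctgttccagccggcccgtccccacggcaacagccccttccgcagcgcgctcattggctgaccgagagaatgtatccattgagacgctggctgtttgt
Egr1 belongs to the same set and has no sequence shown.

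The next 4 sequences were chosen after their values were seen, from other called genes with a CRE or CArG box in the stretch. They are Dusp5 (chr19:53528895-53529144, plus strand), Nr4a1 (chr15:101266596-101266845, plus strand), Errfi1 (chr4:150854820-150855069, plus strand, the second of 2 start sites) and Fos (chr12:85473640-85473889, plus strand).
Dusp5: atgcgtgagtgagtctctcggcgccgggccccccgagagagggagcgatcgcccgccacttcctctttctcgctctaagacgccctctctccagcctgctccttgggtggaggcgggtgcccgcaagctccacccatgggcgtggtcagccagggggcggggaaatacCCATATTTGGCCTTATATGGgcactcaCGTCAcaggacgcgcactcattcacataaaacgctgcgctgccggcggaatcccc
Nr4a1: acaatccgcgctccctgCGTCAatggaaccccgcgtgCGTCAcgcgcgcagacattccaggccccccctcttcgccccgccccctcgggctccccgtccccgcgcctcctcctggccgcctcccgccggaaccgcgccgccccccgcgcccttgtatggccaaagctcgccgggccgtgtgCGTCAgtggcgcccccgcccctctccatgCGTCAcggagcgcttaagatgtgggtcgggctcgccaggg
Errfi1: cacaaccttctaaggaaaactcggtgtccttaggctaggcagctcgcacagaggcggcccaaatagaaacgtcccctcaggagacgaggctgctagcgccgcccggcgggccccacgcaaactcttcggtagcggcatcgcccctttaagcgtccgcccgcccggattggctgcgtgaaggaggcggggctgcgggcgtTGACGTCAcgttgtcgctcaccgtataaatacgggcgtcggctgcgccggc
Fos: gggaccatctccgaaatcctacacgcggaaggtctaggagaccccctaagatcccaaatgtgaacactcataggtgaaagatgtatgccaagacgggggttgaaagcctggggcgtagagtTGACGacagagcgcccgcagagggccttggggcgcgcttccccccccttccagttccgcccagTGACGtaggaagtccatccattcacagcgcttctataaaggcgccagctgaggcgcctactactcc
In Egr2, a CArG box at -72 to -63 was followed after 7 bases by a CRE core. In Dusp5 a CArG box at -72 to -63, directly preceded by another, was also followed after 7 bases by a CRE core. Nr4a1 held 4 CRE cores, Egr4 and Fos 2 each, and Errfi1 a full CRE at -51 to -44. No motif of these kinds was found in the stretch of Dusp6. Per1 held a CRE core at -246 to -242, and no full CRE was found in its windows. The paper reports a CRE in the Per1 promoter and a guide sequence for it that contains TGACGTCA. That site is therefore not in the windows searched. The stretch printed for Per1 lies inside the annotated span of the gene (chr11:69095217-69109960). Over whole windows of 300 bases, on both strands, 4 of the 33 genes called higher that had a window (12.1%) held a full CRE, against 3.58% of 10381 tested genes with a window. A CRE core, which every full CRE contains, was held by 17 of 33 (51.5%) against 35.3%, a CArG box by 3 (9.09%) against 1.51%, and an E-box by 7 (21.2%) against 11.8%. The 3 genes with a CArG box were Egr2, Dusp5 and Top1. For the 13 genes called lower with a window, the share was 46.2% for the CRE core and 0.0% for the full CRE and the CArG box. The EGR site (GCG, any base, GGGCG) was held by 15.2% of the genes called higher, 23.1% of those called lower and 12.7% of all. A pair of CArG box and CRE core within 20 bases was found in 14 tested genes, of which only Egr2 and Dusp5 were called, and the pair was looked for after these sequences had been read. These are matches of letters in a short window and no test was made of them.

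Immediate-early transcription factors held 4 of the 6 called genes that changed by more than 0.5, the others being Dnase1l2 and the small nucleolar RNA AF357426, which has hardly any reads. Of 31 tested members of that list (33 listed), 8 were called higher and 0 lower, where 0.336% and 0.117% of all genes were. The median log2 fold change was 0.18 beside 0.01 over all genes tested, with 26 members higher on average and 5 lower. At an unadjusted p under 0.05 by limma, 16 were higher and 1 lower, as were 6.57% and 3.72% of all genes. Without YWT-BV-1923, where 3.85% of all genes were called higher and 3.52% lower, 14 members were called higher and 1 lower (Jund). The list median was then 0.19. The study names several of these genes from the same libraries, so their choice is not independent of the data.

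Egr2 encodes a zinc-finger transcription factor and had the smallest p of all genes. Its level was 0.171, 0.227, 0.217, 0.314, 0.610 and 0.253 RPKM in the 6 homecage libraries and 1.09, 1.44, 1.66, 1.08, 1.24 and 1.12 RPKM in the 6 OLM libraries. The groups did not overlap, and the highest homecage value was that of mouse YWT-HC-1931. The mean was 0.299 ± 0.160 RPKM (SD, n = 6) in the homecage and 1.27 ± 0.232 RPKM (SD, n = 6) after OLM, a ratio of 4.26. The log2 fold change, 1.16 ± 0.13 (SE), understates this ratio because 0.5 was added to a low level (adjusted p = 0.0056 from limma). Egr2 is a rare transcript, and its values rest on an estimated 16.0 to 67.6 reads per homecage library and 89.5 to 150.0 reads per OLM library.

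Egr1, the most abundant of the family and a marker of synaptic plasticity, stood at 27.99, 35.72, 31.24, 36.57, 42.59 and 31.14 RPKM in homecage libraries and at 62.6, 51.9, 56.3, 47.7, 57.0 and 51.5 RPKM after OLM. The lowest OLM library, that of mouse YWT-BV-1923, lay above the highest homecage library, that of mouse YWT-HC-1931, and the log2 fold change was 0.67 ± 0.09 (adjusted p = 0.026 from limma). Egr4 stood at 7.43 to 10.6 RPKM (median 8.70) in the homecage and at 12.1 to 14.6 RPKM (median 13.2) after OLM, with no overlap and a log2 fold change of 0.58 ± 0.07 (adjusted p = 0.019). Egr3, the fourth member, changed by 0.14 and was not called with all 12 libraries, but was called without YWT-BV-1923. Nab2, which binds EGR1 and EGR2 and represses their activity, rose by 0.20 ± 0.04 (adjusted p = 0.092), from 13.9 to 16.2 RPKM in the homecage to 16.9 to 18.4 RPKM after OLM.

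Fos and its relatives encode subunits of the AP-1 transcription factor. Fos stood at 1.75, 2.25, 2.26, 2.13, 5.11 and 1.99 RPKM in homecage libraries and at 5.40, 4.33, 6.68, 6.33, 5.23 and 4.64 RPKM after OLM. Mouse YWT-HC-1931 lay within the OLM range and the other 5 homecage mice lay below it. The log2 fold change was 1.01 ± 0.19 (adjusted p = 0.084 from limma), and without YWT-HC-1931 it was 1.20 (adjusted p = 0.00042). Fosb rose from 1.12 to 1.62 RPKM to 1.67 to 2.64 RPKM (log2 fold change 0.50 ± 0.10, adjusted p = 0.12), with no overlap. Junb rose from a median of 19.6 to 27.5 RPKM (0.39 ± 0.09, adjusted p = 0.15), again with YWT-HC-1931, at 26.6 RPKM, inside the OLM range. Jun changed by 0.03 and Fosl2 by 0.13 and neither was called.

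Nr4a1, an orphan nuclear receptor linked to hippocampal memory, stood at 16.2 to 21.9 RPKM in homecage libraries and 22.1 to 29.0 RPKM after OLM (log2 fold change 0.48 ± 0.08, adjusted p = 0.063 from limma). The groups were separated by little, the nearest libraries being YWT-HC-1931 and YWT-BV-1923. Nr4a2 changed by 0.18 ± 0.09 (adjusted p = 0.53) and was not called. Bhlhe40, a repressor that belongs both to this list and to the clock, rose by 0.24 ± 0.05 (adjusted p = 0.11). Npas4, an activity-dependent transcription factor of neurons, changed by -0.15 and was not called.

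**Figure D1:**
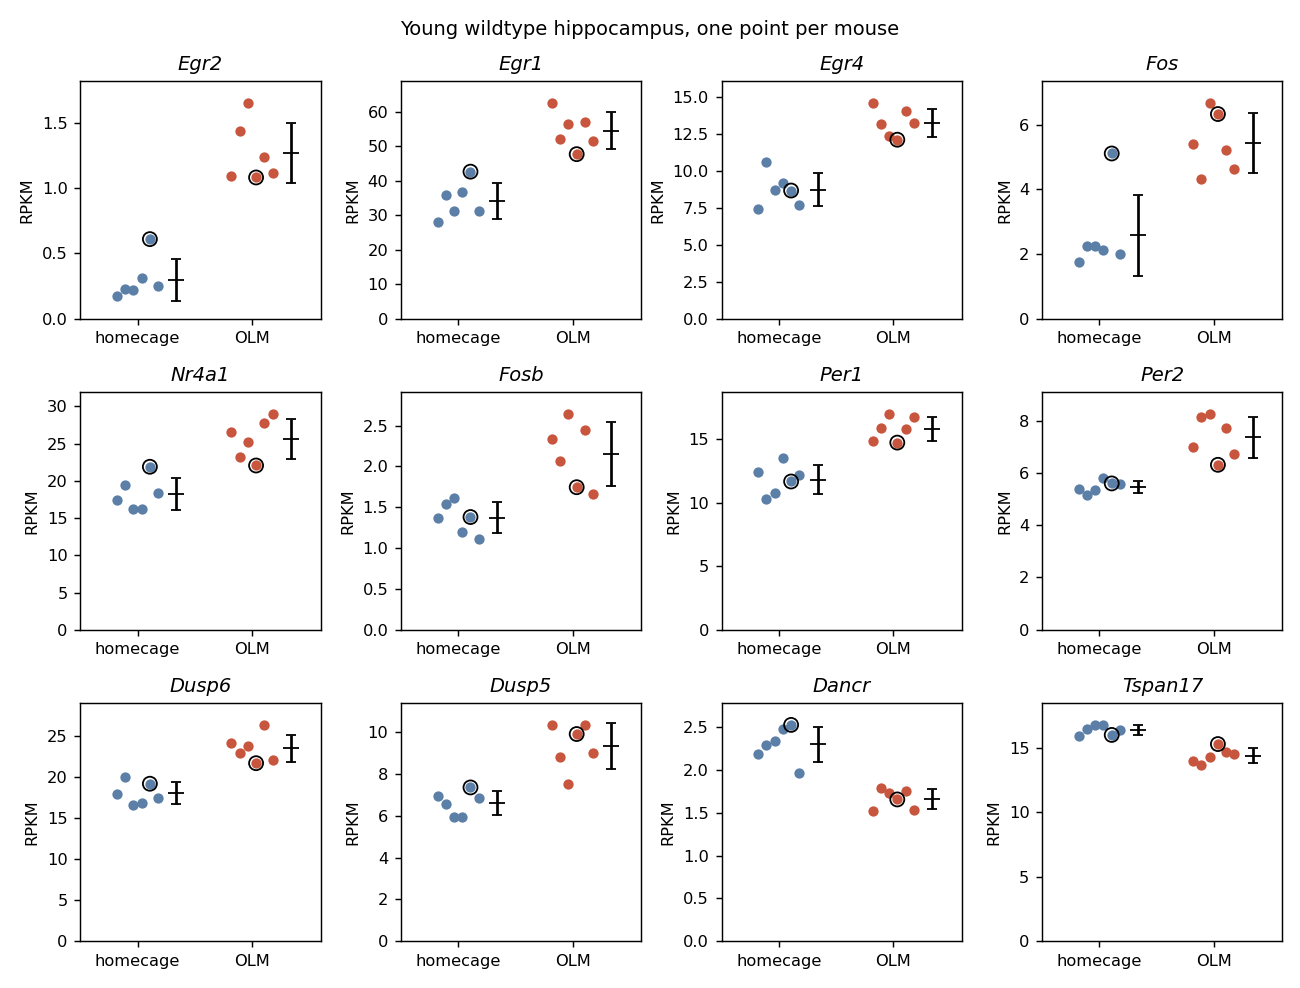
RPKM of 12 called genes in each young wildtype library, one point per mouse (blue, 6 homecage; red, 6 OLM), with the mean and SD as bars. Circles mark YWT-HC-1931 and YWT-BV-1923. For Fos the circled homecage mouse, at 5.11 RPKM, lies in the OLM range, while Egr2, Egr1 and Egr4 do not overlap, and Dancr and Tspan17 are lower after OLM.

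Mouse YWT-HC-1931 was the nearest to the OLM group for 24 of the 46 genes called higher, more than any other homecage mouse (1 to 6 genes each). The mean log2 level of the 8 called early genes was 3.34 in this mouse, 2.85 to 3.10 in the other 5 homecage mice and 3.55 to 3.76 in the OLM mice. This library is also 1 of the 3 with high Ttr, and the part of either mouse or tissue in its early-gene level was not tested.

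The second group comprises inhibitors that feed back on growth factor receptors and MAP kinases. Of 21 tested members, 4 were called higher and 0 lower, where 0.336% of all genes were called higher. The median log2 fold change was 0.04, and on average 15 members were higher and 6 lower. Without YWT-BV-1923, where 3.85% of all genes were called higher, 7 were, the additional members being Dusp4, Spred1 and Spred2. Dusp6, a phosphatase that inactivates ERK in the cytoplasm, stood at 18.0, 20.1, 16.6, 16.8, 19.2 and 17.4 RPKM in homecage libraries and 24.2, 22.9, 23.8, 21.7, 26.4 and 22.1 RPKM after OLM. The groups did not overlap, and the log2 fold change was 0.37 ± 0.06 (adjusted p = 0.038 from limma). Dusp5, which inactivates ERK in the nucleus, rose from 5.92 to 7.36 RPKM to 7.51 to 10.4 RPKM (0.47 ± 0.08, adjusted p = 0.059). Spry4, an inhibitor of receptor tyrosine kinase signalling, rose from 2.13 to 2.79 RPKM to 2.86 to 3.66 RPKM (0.35 ± 0.07, adjusted p = 0.092). Errfi1, which binds and inhibits the EGF receptor, rose from 12.8 to 14.6 RPKM to 15.6 to 17.7 RPKM (0.27 ± 0.04, adjusted p = 0.045). Within this family Dusp1 changed by 0.08, Spry1 by 0.07 and Spry2 by -0.09, and none of the 3 was called.

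The third group is the circadian clock. Among 21 members tested, Per1, Per2 and Bhlhe40 were called higher and 0 were called lower (median log2 fold change 0.11). On average 16 members were higher and 5 lower. At an unadjusted p under 0.05 by limma, 5 were higher and 1 lower, as were 6.57% and 3.72% of all genes. With all 12 libraries, 0.336% of all genes were called higher. Without YWT-BV-1923, where 3.85% of all genes were called higher, the clock list held 3 higher and 0 lower. Per1 stood at 12.4, 10.3, 10.8, 13.5, 11.7 and 12.2 RPKM in homecage libraries and at 14.9, 15.9, 17.0, 14.7, 15.8 and 16.8 RPKM after OLM, an increase of 0.41 ± 0.06 on the log2 scale (adjusted p = 0.038 from limma) with no overlap. Per2 stood at 5.14 to 5.80 RPKM in the homecage, where its spread was narrow, and at 6.31 to 8.26 RPKM after OLM (0.39 ± 0.06, adjusted p = 0.054). The positive arm of the clock did not pass the test. Clock changed by 0.06, Arntl by -0.09 and Npas2 by -0.18 ± 0.07 (adjusted p = 0.41 for Npas2). The output genes Dbp and Nr1d1 changed by 0.16 and 0.11 and were not called. Labels give no time of day for a library.

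The remaining lists of activity and hormone genes held few calls. Of 34 tested activity-induced effector genes, limma called 0 (9 higher and 2 lower at an unadjusted p under 0.05, as were 6.57% and 3.72% of all genes), and without YWT-BV-1923, where 3.85% and 3.52% of all genes were called, it called 5 higher (Sik1, Gpr3, Arl5b, Homer1 and Nptx2) and 1 lower (Kcnj2). Arc, whose protein acts at active synapses, stood at 21.2 to 45.2 RPKM in homecage libraries and 33.5 to 53.2 RPKM after OLM, with a log2 fold change of 0.54 ± 0.17 (adjusted p = 0.30). Without YWT-HC-1931 this was 0.67 and passed the test (adjusted p = 0.10). Sgk1, a kinase induced by glucocorticoids, changed by 0.61 ± 0.22 (adjusted p = 0.36) and ranged from 14.7 to 37.0 RPKM in the homecage, against 25.2 to 49.7 RPKM after OLM. Of 25 tested glucocorticoid-responsive genes, Per1 and Errfi1 were called higher with all 12 libraries, where 0.336% of all genes were. Both also stand in the lists above. Without YWT-BV-1923, where 3.85% of all genes were called higher, Klf9 was called higher as well (0.13, adjusted p = 0.14 from limma). Without the 3 libraries richest in Ttr 5 members were called higher, where 816 of 13705 genes were. Tsc22d3, which encodes the glucocorticoid-induced leucine zipper protein, changed by 0.33 ± 0.12 and Nfkbia by 0.35 ± 0.12 (adjusted p = 0.36 and 0.35). Fkbp5, another standard target of the receptor, changed by 0.06.

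The CREB list held no call among 17 members with all 12 libraries (2 at an unadjusted p under 0.05, both higher). Without YWT-BV-1923, where 3.85% of all genes were called higher, 4 members were called higher: Creb1, Crebbp, Ep300 and Sik1. Creb1 changed by 0.14 ± 0.04 (adjusted p = 0.30, and 0.15 without YWT-BV-1923). Hdac3 stood at 33.4 RPKM in homecage libraries and 32.9 RPKM after OLM, a log2 fold change of -0.02 ± 0.04 (adjusted p = 0.92), and none of the 16 histone deacetylase and NCoR genes had an unadjusted p under 0.05 by limma or was called without YWT-BV-1923.

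Receptors and channels moved little. With all 12 libraries, limma called 0 of 33 glutamate receptor and scaffold genes (1 lower at an unadjusted p under 0.05), 0 of 18 GABA genes (1 higher) and 0 of 30 potassium channels (3 lower), with medians of -0.02, -0.0041 and -0.04. Without YWT-BV-1923, where 3.85% of all genes were called higher and 3.52% lower, these lists held 1, 1 and 1 calls. They were Homer1 higher, Gabrb1 higher and the channel Kcnj2 lower. Bdnf, the neurotrophin often induced by activity, changed by 0.03. Heat shock genes were higher on average in 22 of 23 cases, with a median of 0.10, and 0 were called (7 higher at an unadjusted p under 0.05). Without YWT-BV-1923 the cochaperones Dnajb1 and Dnajb5 and the chaperone Hspa8 were called higher and Hspe1 lower.

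**Figure D2:**
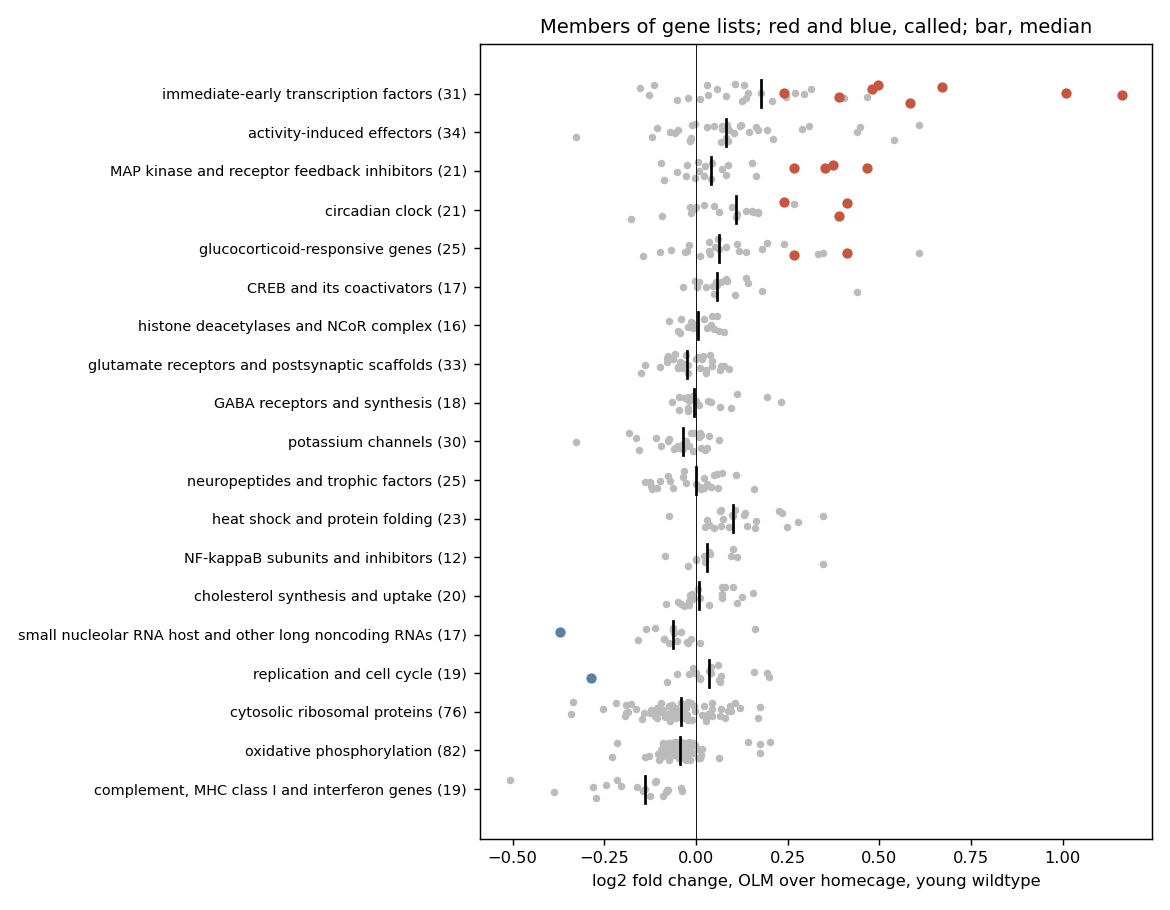
Log2 fold change (OLM over homecage) of each tested member of 19 gene lists, with the number tested in parentheses, called members in red (higher) or blue (lower) and the list median as a black bar. The called genes lie in the immediate-early, feedback inhibitor, clock and glucocorticoid lists, with 1 each in the noncoding RNA and replication lists.

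Genes outside these lists made up most of the calls. Of the 46 genes called higher, 32 stood in none of the activity, feedback, clock and glucocorticoid lists. Those below were chosen after their values were seen where they are not the most abundant or most changed. Several act on chromatin or RNA. Kdm7a and Kdm3a, histone lysine demethylases, rose by 0.27 ± 0.05 and 0.20 ± 0.04, and Jmjd6, a hydroxylase of splicing factors, by 0.30 ± 0.07 (adjusted p = 0.065, 0.092 and 0.14 from limma). Hnrnpu, Rbm39 and Sfpq, which bind RNA and take part in splicing, are abundant and rose by 0.11, 0.17 and 0.14. Hnrnpu stood at 94.8 to 99.2 RPKM in homecage libraries and 102.3 to 105.7 RPKM after OLM, so that a ratio of means of 1.08 separated the groups. Pcf11, part of the machinery that cleaves transcripts at their 3′ ends, rose by 0.23 ± 0.04 and Ints8, a subunit of the Integrator complex, by 0.28 ± 0.05. Midn, which directs nuclear proteins of the immediate-early kind to the proteasome, rose by 0.25 ± 0.04 (adjusted p = 0.065) from 8.75 to 10.3 RPKM to 10.4 to 11.5 RPKM.

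Other genes called higher were Uba6, a ubiquitin-activating enzyme (0.29 ± 0.05), P4ha1, a collagen prolyl hydroxylase (0.32 ± 0.07), Dnase1l2, a nuclease of the DNase I family (0.50 ± 0.09), and Stc2, a secreted glycoprotein (0.33 ± 0.07). For P4ha1 the highest value after OLM, 17.7 RPKM, was that of mouse YWT-BV-1923, and the lowest, 12.6 RPKM, lay under the highest homecage value of 12.8 RPKM. The small nucleolar RNA AF357426 had the largest log2 fold change of all called genes, 1.32 ± 0.24 (adjusted p = 0.065 from limma). It is 67 bases long, 3 of 6 homecage libraries were at 0, and the highest value corresponds to an estimated 2.55 reads, so this difference rests on hardly any reads. Of 60 called genes with a position, 13 overlap another gene on the opposite strand, and the library kit keeps no strand, so reads of the 2 genes cannot be told apart where they overlap. They are Errfi1 (with 1700045H11Rik), Junb (Prdx2), Bhlhe40 (0610040F04Rik), Nab2 (Stat6), Kdm7a (4930599N23Rik), Hnrnpu (Cox20), Ints8 (Ccne2), Jmjd6 (Mettl23), Zbtb11 (Zbtb11os1 and Pcnp), Mis12 (Derl2), Dll4 (Gm14207), Tmem175 (Dgkq) and Btbd6 (Brf1).

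Genes that fell were fewer and changed less. Dancr, a long noncoding RNA that hosts a small nucleolar RNA, stood at 2.19, 2.30, 2.34, 2.48, 2.53 and 1.97 RPKM in homecage libraries and 1.52, 1.79, 1.73, 1.66, 1.75 and 1.54 RPKM after OLM. The groups did not overlap and the log2 fold change was -0.37 ± 0.06 (adjusted p = 0.059 from limma). With all 12 libraries it was the only one of 17 tested members of its list to be called, and the others ranged from -0.16 (Miat) to 0.16 (Malat1). Without YWT-BV-1923 Malat1 was called higher, at 0.34 (adjusted p = 0.12 from limma), beside Dancr. Tipin, which stabilises replication forks, fell by 0.29 ± 0.05 (adjusted p = 0.065), from 8.33 to 9.53 RPKM to 6.79 to 8.39 RPKM, and its partner Timeless changed by 0.04. Mylip, a ubiquitin ligase, fell by 0.24 ± 0.05. Dll4, a Notch ligand of endothelial cells, fell by 0.37 ± 0.08 from 0.713 to 1.03 RPKM to 0.452 to 0.631 RPKM, with no overlap, while 0 of 12 endothelial markers were called (1 higher at an unadjusted p under 0.05, and 0 called without YWT-BV-1923). Fcgr1, a receptor for immunoglobulin on microglia, fell by 0.27 ± 0.06 (adjusted p = 0.15), and all 12 microglial markers were lower on average (median -0.07) with 0 called, also without YWT-BV-1923, and 1 lower at an unadjusted p under 0.05.

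The most abundant genes called lower were Gpr162, an orphan receptor (50.7 to 53.0 RPKM in the homecage, 44.5 to 48.8 RPKM after OLM), Btbd6, an adaptor of ubiquitin ligases, and Tspan17, a tetraspanin. Their log2 fold changes were -0.16 ± 0.03, -0.14 ± 0.03 and -0.18 ± 0.03. Nlrx1, a mitochondrial member of the NLR family, fell by 0.27 ± 0.06, and Tmem175, a lysosomal potassium channel, by 0.15 ± 0.03. The genes 2610524H06Rik and Gm9776 fell by 0.31 and 0.33.

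**Figure D3:**
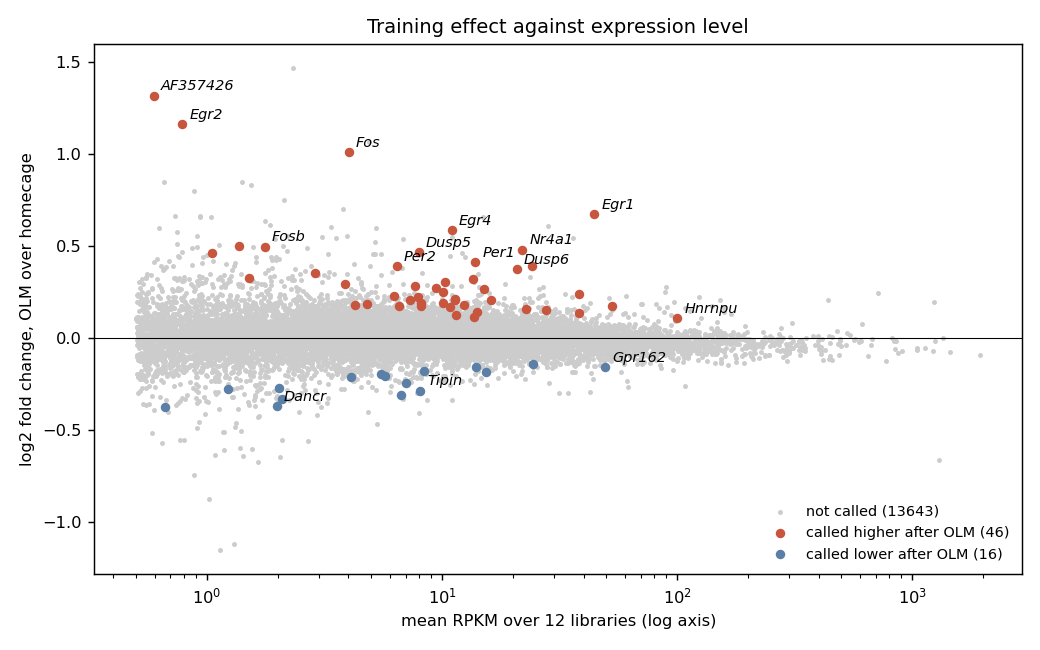
Log2 fold change (OLM over homecage) against the mean RPKM over 12 libraries (log axis) for 13705 genes, with 46 called higher in red and 16 called lower in blue. Egr2, Fos and Egr1 stand above the rest of the called protein-coding genes, and called genes at high levels such as Hnrnpu and Gpr162 changed little.

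Called genes did not differ much from the rest in abundance. The median mean level was 10.2 RPKM for those called higher, 6.23 RPKM for those called lower and 7.86 RPKM for all tested. Genomic spans were shorter, with medians of 20527 bases, 10179 bases and 24845 bases, and 31.1%, 46.7% and 24.7% of matched genes spanned under 10 kb. Between 93.8% and 97.8% of each set had a span. No test was made of these.

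The oxidative phosphorylation and ribosomal protein lists held many calls only when YWT-BV-1923 was left out. In that fit, where 3.85% of all genes were called higher, the astrocyte and oligodendrocyte precursor lists held 1 higher call each. The interneuron list held 1 lower call, and these 3 lists held 0 calls with all 12 libraries. Of 82 tested nuclear genes of oxidative phosphorylation, limma called 0 with all 12 libraries (3 lower at an unadjusted p under 0.05) and 37 lower, 0 higher, without YWT-BV-1923, where 3.52% of all genes were called lower. Their median log2 fold change was -0.04 with it and -0.11 without it. The summed level was 9050 to 9570 RPKM in the homecage libraries and 8440 to 8870 RPKM in the 5 OLM libraries, which did not overlap, but 10900 RPKM in YWT-BV-1923. Examples without that library are Ndufb4, a subunit of complex I, at -0.28 (adjusted p = 0.033) and Uqcrfs1, the iron-sulphur subunit of complex III, at -0.13 (adjusted p = 0.043). Cytosolic ribosomal protein genes had 0 calls of 76 with all libraries (4 lower at an unadjusted p under 0.05) and 13 lower without YWT-BV-1923, with medians of -0.04 and -0.09. Without the 3 libraries richest in Ttr, 28 and 9 members were called lower, where 532 of 13705 genes were. The part of choroid plexus tissue in these values was not tested.

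All 19 complement, MHC class I and interferon genes were lower on average after OLM, with a median of -0.14, and limma called 0 of them (1 lower at an unadjusted p under 0.05, and 1 called without YWT-BV-1923, Ifi27). Their summed level was 264 to 394 RPKM in homecage libraries and 262 to 364 RPKM after OLM, so the groups overlapped almost fully.

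**Figure D4:**
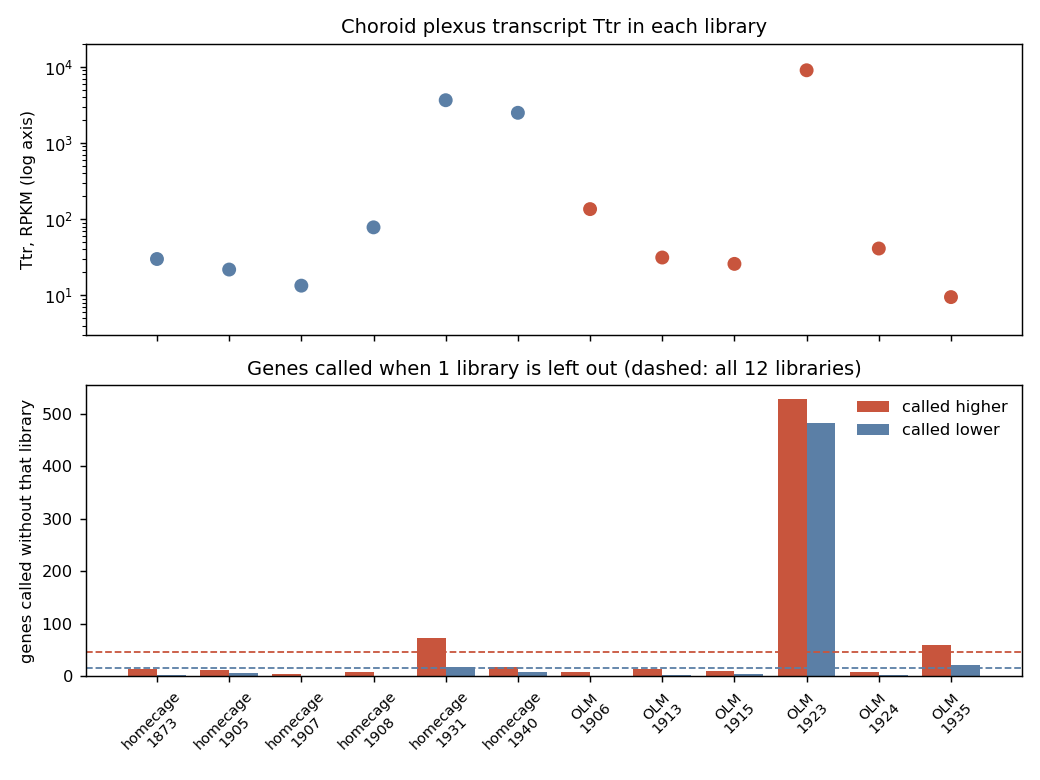
Upper panel, Ttr level in RPKM (log axis) of each young library (blue, homecage; red, OLM). Lower panel, number of genes called higher (red bars) and lower (blue bars) when that library is left out, with dashed lines at 46 and 16 for all 12 libraries. Leaving out YWT-BV-1923, which has the highest Ttr, gave 528 and 482 calls, and leaving out any other library gave at most 74 and 21.

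The calls that held whichever library was left out were those of Egr2, Egr4, Egr1, Per1 and Dusp6. The number of calls ranged from 5 higher and 0 lower (without YWT-HC-1907) to 528 and 482 (without YWT-BV-1923). Leaving out YWT-HC-1931 gave 74 and 18 calls and leaving out YWT-BV-1935 gave 60 and 21. There were 14 and 3 calls without YWT-HC-1873, 13 and 6 without YWT-HC-1905, 9 and 1 without YWT-HC-1908 and 18 and 8 without YWT-HC-1940. Among OLM libraries, leaving out YWT-BV-1906 gave 8 and 0 calls, YWT-BV-1913 gave 14 and 3, YWT-BV-1915 gave 10 and 4, and YWT-BV-1924 gave 9 and 2. Errfi1 and Per2 were called in 11 of the 12 fits, Nr4a1 and Dusp5 in 8 and Fos in 4, while 42 of the 62 genes were called in at most 4.

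Training effects in the old mice give a measure of how far the response of the young mice was shared. Old wildtype mice gave 6 homecage and 6 OLM libraries, and old HDAC3flox/flox mice 8 and 8. Age, the earlier study and the infusion differ together between young and old, so they cannot be told apart. No gene passed the test of the difference in training effect between young and old wildtype mice by limma (0.0%, with 882 genes more positive in young and 477 more negative at an unadjusted p under 0.05), and none between young wildtype and old HDAC3flox/flox mice (0.0%, with 1070 and 453). With weights for libraries, in place of equal weights, the same tests called 1884 and 824 genes, and 3373 and 2600 genes. Without YWT-BV-1923 both counts were again 0.

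Of the 46 genes called higher in young mice, 29 (63.0%) were higher on average in old wildtype mice and 32 (69.6%) in old HDAC3flox/flox mice, where 49.6% and 48.7% of all genes had the same sign as in young mice. The median log2 fold change of the 46 was 0.24 in young, 0.05 in old wildtype and 0.06 in old HDAC3flox/flox mice. The genes were called on the young libraries, which favours larger values there. Egr4 changed by nearly the same amount in all 3 sets of mice, 0.58 ± 0.07, 0.51 ± 0.12 and 0.55 ± 0.14 (SE), and so did Fosb, 0.50 ± 0.10, 0.54 ± 0.11 and 0.55 ± 0.09, and Nr4a1, 0.48 ± 0.08, 0.42 ± 0.16 and 0.39 ± 0.17.

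Egr2 and Fos showed another pattern, with homecage levels that were higher and more variable in the old mice. Egr2 stood at 0.171 to 0.610 RPKM in young, 0.230 to 1.62 RPKM in old wildtype and 0.321 to 2.19 RPKM in old HDAC3flox/flox homecage mice, while its OLM medians were 1.18, 1.38 and 1.20 RPKM. Its training effect was 1.16 ± 0.13, 0.53 ± 0.21 and 0.22 ± 0.18 on the log2 scale. The unadjusted p of the difference from young was 0.049 in old wildtype and 0.0021 in old HDAC3flox/flox mice by limma, and neither passed after adjustment (0.50 and 0.44). Fos stood at medians of 2.19, 7.36 and 9.78 RPKM in the 3 homecage groups and 5.32, 10.3 and 9.22 RPKM in the OLM groups, with training effects of 1.01 ± 0.19, 0.38 ± 0.26 and -0.01 ± 0.23. Dusp6 changed by 0.37 ± 0.06 in young, 0.11 ± 0.11 in old wildtype and -0.11 ± 0.10 in old HDAC3flox/flox mice, and its homecage medians were 17.7, 25.7 and 30.2 RPKM. Junb changed by 0.39 ± 0.09, -0.19 ± 0.14 and -0.15 ± 0.16.

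Per1 changed by 0.41 ± 0.06 in young, 0.21 ± 0.07 in old wildtype and 0.50 ± 0.07 in old HDAC3flox/flox mice, and Per2 by 0.39 ± 0.06, 0.14 ± 0.07 and 0.56 ± 0.14. For Per1 the difference from young was 0.20 in old wildtype (unadjusted p = 0.042, adjusted p = 0.50) and -0.09 in old HDAC3flox/flox mice (unadjusted p = 0.45, adjusted p = 0.81), both from limma. Dancr fell by 0.37 in young mice and changed by 0.08 ± 0.11 and 0.09 ± 0.13 in the old. The genes with the smallest p for the difference from old wildtype mice were Pip4k2c, Il34, Nat8, Rab15 and Mapk11, each with an adjusted p of 0.50. The same for old HDAC3flox/flox mice were Adora3, AF357426, Snora34, Sptbn4 and Tfg, each at 0.44, of which AF357426 and Snora34 are small nucleolar RNAs with very few reads.

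**Figure D5:**
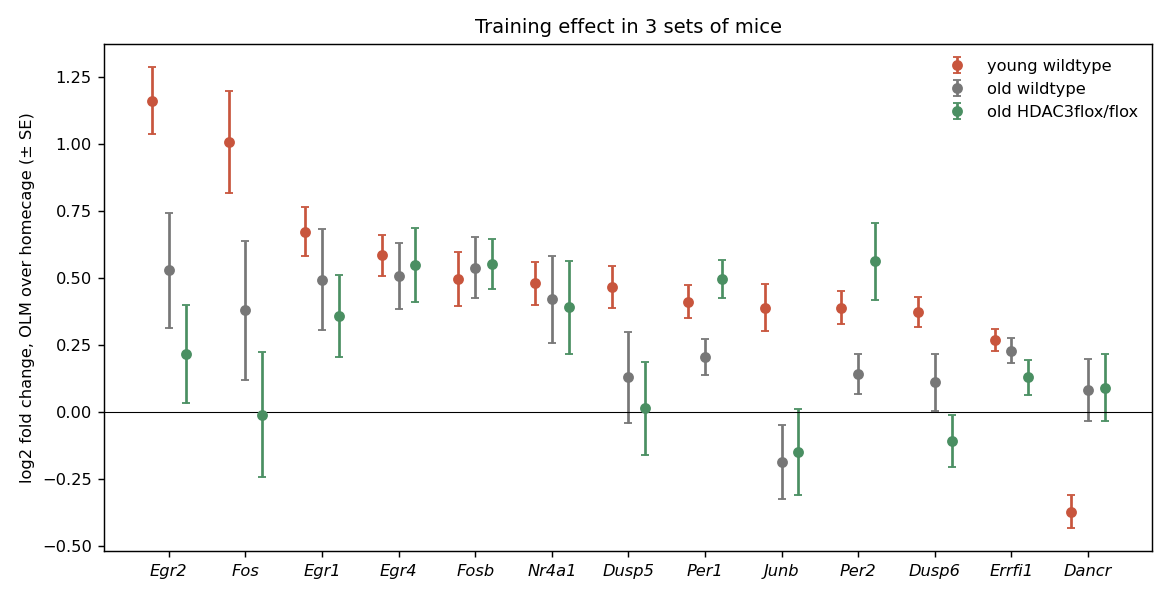
Log2 fold change (OLM over homecage) with its SE for 13 genes called in young wildtype mice, in young wildtype (red, 6 against 6), old wildtype (grey, 6 against 6) and old HDAC3flox/flox mice (green, 8 against 8). Egr4, Fosb and Nr4a1 lie close together in the 3 sets, while Egr2, Fos and Dusp6 are largest in young mice, with no difference that passed after adjustment over all genes.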

How the data were processed

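RNA of the dorsal hippocampus was sequenced by the authors on an Illumina HiSeq as single reads of 50 bases, with 1 library per mouse. The authors filtered reads with CASAVA 1.8.2, aligned them to mm10 with ELAND and Bowtie, kept unique matches and deposited RPKM values, which were used here. The deposited columns of the authors' own comparisons (regularized t statistics) were not used. Samples were grouped by label.

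OLM and homecage libraries were compared on log2(RPKM + 0.5) with limma 3.58.1 (empirical Bayes with a trend) in R 4.3.3, over 13705 genes with a mean of at least 0.5 RPKM, and adjusted over all of them. Calls needed p under 0.05 and adjusted p under 0.15, the thresholds of the study. A value in RPKM keeps no read count, so depth was estimated from the steps of low values. Tested on simulated data, the fit over 13705 genes recovered 95 of 100 genes changed by 0.5 and 97 of 100 changed by 1 on the log2 scale, and also called 42 unchanged genes. The simulated noise was independent for each gene and equal across libraries, so no library stood apart as YWT-BV-1923 does. These counts therefore do not carry over to the calls in the real libraries. Differences between young and old training effects were tested as interactions in the libraries of both. Members and lists were chosen with earlier results of these data known. Genes named with values are those the study names, those called in every leave-one-out fit, the 15 called higher and 10 called lower with the largest changes, the 5 most abundant called in each direction, up to 4 per list with the smallest p and up to 5 per difference test. Others were chosen after their values were seen. Alternatives were other pseudocounts, filters, scalings, weights, a robust fit, a regularized t, all 40 libraries in 1 model, an Xist covariate and each library left out. Python 3.11.15 drew the figures. The labels say nothing of cage or litter, so p-values measure the spread between mice as sampled.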

Additional observations from a re-analysis of the deposited data

Results flagged for a closer look

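In groups of 6 mice, the gap between the most extreme library and its neighbour was compared with the range of the group, and 9 of 100 groups exceeded Dixon's critical value, where chance gives about 1 in 20. YWT-HC-1931 was high for Fos (5.11 RPKM, ratio 0.776) and low for summed microglial markers (181 RPKM, ratio 0.685). YWT-BV-1923 was high for choroid plexus markers (9310 RPKM, ratio 0.66) and for interneuron markers (894 RPKM, ratio 0.631). YWT-BV-1935 was high for Tipin (8.39 RPKM, ratio 0.719) and for Prkab1 (5.94 RPKM, ratio 0.674), both of which are lower after OLM in the other trained mice. YWT-BV-1913 was low for AF357426 (0.292 RPKM, ratio 0.626), a gene with very few reads. YWT-BV-1915 was high for neocortical markers (115.4 RPKM, ratio 0.807). The estimated depth of YWT-BV-1924, 35.3 M reads, was above that of the other trained mice (ratio 0.773).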

How the results depend on the processing

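The counts of called genes depended on the weight of single libraries more than on the scale of the values. Pseudocounts of 0.1 and 1, no filter or a minimum mean of 1 or 5, quantile normalization, a robust fit and Xist as a covariate left both counts within 1.5 times of 46 higher and 16 lower. Median-ratio scaling gave 57 and 36, which lowers the share of higher calls, as does quantile normalization (38 and 21, of which 30 and 8 are among the 46 and 16). A regularized t on RPKM, the kind of test the study used, gave 54 and 25, of which 20 and 3 are among the 46 and 16, weights for libraries 702 and 564, and a model of all 40 libraries 3 and 1. An adjusted p under 0.05 left 6 and 0, and p under 0.05 with no adjustment gave 900 and 510. Leaving out 1 library at a time gave 5 to 528 higher and 0 to 482 lower. Among alternatives added after the values were seen, leaving out the 3 libraries with most Ttr gave 816 and 532, and leaving out YWT-BV-1923 with Xist as a covariate gave 503 and 515. Both included YWT-BV-1923 among the libraries left out, and the cause of the rise was not tested further. The difference tests against old wildtype and old HDAC3flox/flox mice called 0 genes under each alternative run except library weights, which called 1884 more positive and 824 more negative, and 3373 and 2600. For 43 named genes, no alternative turned the direction of the change, 782 of the values stayed on the same side of the thresholds, 307 lost the call and 15 gained it. No paired analysis was possible because mouse numbers are shared by no groups. Genes with few reads, such as Egr2 in the homecage, are measured least precisely, and at 6 mice a group a difference that was not called may still be present.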
